A study of Homo sapiens with 14 samples.

Results

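Light polysome mRNA was compared with total mRNA in MB-231-shNSi cells, for all genes with at least 10 read counts in 2 or more of the 4 libraries, which were 15209 of the 58434 gene symbols in the deposited table. MB-231-shNSi is the control line of the study, made from MDA-MB-231, an established human breast cancer cell line, by stable transduction with a doxycycline-inducible lentiviral vector for a non-silencing shRNA and sorting for its red fluorescent reporter. Both control cultures received doxycycline at 1 µg/ml for 6 days, as did the MB-231-shDAP5 cultures, which express an shRNA against DAP5 (the gene EIF4G2) and are used here only as a second set of 2 cultures. Cytoplasmic lysates were kept in cycloheximide, which holds ribosomes on mRNA, and separated on a sucrose gradient. Messages carrying few ribosomes were pooled as light polysomes and those carrying more as heavy polysomes. Total mRNA was sequenced from the same cultures.

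A ribosome entering an mRNA takes time to cross the coding sequence, so at a given rate of initiation a long coding sequence holds more ribosomes than a short one. A small number of ribosomes on an mRNA can therefore reflect a short coding sequence, slow initiation at the start codon, or translation of a short open reading frame such as one upstream of the main start or in an RNA listed as noncoding. The light over total ratio gives the share of light polysome reads that a gene takes, relative to its share of total mRNA reads. It does not count ribosomes on a molecule. A low ratio does not show whether the rest of the mRNA was in moderate or heavy polysomes or free of ribosomes.

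The 4 libraries held between 25899838 and 28082333 counts, and 13959 of the 15209 genes had at least 10 counts in each of them. A further 140 genes passed only through both light libraries and 68 only through both total libraries. The markers fixed for MDA-MB-231 were high, with vimentin (VIM) at 1147 to 5601 CPM (counts scaled to library size, with TMM factors between libraries), whereas ESR1 had 4 to 16 counts, CDH1 1 to 5 counts and PGR 0 counts. The leukocyte gene PTPRC had at most 1 count.

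Of the 15209 genes, 1665 (10.9%) were higher and 3280 (21.6%) lower in light polysomes than in total mRNA by edgeR's quasi-likelihood test with each culture as a block (adjusted p under 0.05, Benjamini-Hochberg over all 15209). The lowest coding genes with a mean of at least 10 CPM included MYH9, COL4A2 and COL4A1, and the highest SELENOM, RHOD and CKLF. The low end reached further. Among all genes at that level the log2 ratio ran from −2.65 in MYH9 to 1.18 in UBE2SP1, a processed pseudogene whose reads may belong to its parent gene, with 1574 of all genes below −1 and 352 above 1. Both control cultures gave a ratio of the same sign for 11690 genes (76.9%), and across genes, which are not independent replicates, the ratios of both cultures correlated with Pearson's r of 0.65, or 0.81 for the 9410 genes with at least 10 CPM. The calls rest on the pairing of the fractions by culture and, for the higher genes, on culture 1. Without the culture block (replicate block) no gene passed, with 1055 genes higher and 2366 lower at an unadjusted p under 0.05, and without culture 1 only 4 higher and 506 lower calls were made, against 970 and 1871 without culture 2. With scaling by library size alone 2434 genes were higher and 2924 lower, so that lower genes made up 54.6% of the calls in place of 66.3%.

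The light pool is labelled as poorly translated mRNA. Protein-coding genes made up 1404 of the 1665 higher genes (84.3%) and 3165 of the 3280 lower genes (96.5%), and 12558 of all 15209 genes. Of these coding genes 11.2% were higher, near the 10.9% of all genes, and 25.2% lower, against 21.6%. The coding sequences of the higher genes were short, with a median of 600 nt (25th to 75th percentile 438 to 858 nt), against 2244 nt for the lower genes and 1317 nt for the genes that were not called. Of the higher coding genes 1085 (77.3%) had a coding sequence under 900 nt, and of the lower ones 25 (0.79%). Lengths were the longest annotated coding sequence of each gene in GENCODE v29.

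A pair of short coding sequences from the higher set is printed here to show what a coding sequence of this length is. Each is the whole open reading frame in the GENCODE v29 transcript sequence (GRCh38), on the strand of the gene, with start and stop codons in capitals. UQCR11 (chromosome 19, minus strand, 171 nt) encodes a subunit of respiratory complex III and COX7C (chromosome 5, plus strand, 192 nt) a subunit of cytochrome c oxidase.
UQCR11: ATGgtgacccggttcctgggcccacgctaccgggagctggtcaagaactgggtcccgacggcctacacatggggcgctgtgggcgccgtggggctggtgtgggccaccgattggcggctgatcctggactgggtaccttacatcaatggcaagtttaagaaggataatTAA
COX7C: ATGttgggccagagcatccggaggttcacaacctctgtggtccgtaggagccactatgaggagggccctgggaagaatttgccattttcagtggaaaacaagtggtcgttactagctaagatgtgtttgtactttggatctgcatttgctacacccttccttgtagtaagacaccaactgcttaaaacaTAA

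Above 449 nt the ratio fell from each class of coding length to the next. The median log2 ratio was 0.68 for the 194 genes with a coding sequence under 300 nt, 0.74 for the 527 genes of 300 to 449 nt, 0.35 for the 1716 genes of 600 to 899 nt, −0.19 for the 2976 genes of 1200 to 1799 nt and −0.83 for the 358 genes of 6000 nt or more. Of the genes of 300 to 449 nt 297 (56.4%) were higher and 0 lower. Calls changed sides at 900 to 1199 nt, where 160 genes were higher and 216 lower. Scaled by library size alone, this class had 268 higher and 180 lower, so where calls change sides depended on the scaling. Of the genes of 6000 nt or more 240 (67.0%) were lower and 2 higher. Without culture 1, 66 of these long genes were lower and 0 of those of 300 to 449 nt higher, and without culture 2, 79 and 245. Across 12550 coding genes Spearman's rho between the log2 ratio and coding length was −0.62, a description across genes that share 4 libraries. It was −0.53 in culture 1, −0.64 in culture 2 and −0.45 in the shDAP5 cultures.

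The coding sequence carried more of this order than the untranslated parts did. Spearman's coefficient was −0.45 for the length of the transcript, −0.01 for the length before the start codon, −0.14 for the length after the stop codon and 0.14 for the GC percent of the transcript. Within a class of coding length longer transcripts had a lower median in some classes and hardly in others. For coding sequences of 1200 to 1799 nt the median was −0.19 in transcripts up to the median length of that class (2732 nt) and −0.18 in longer ones. For 450 to 599 nt it was 0.69 and 0.53, split at 1438 nt, with 54.5% and 31.0% of genes higher. For 600 to 899 nt it was 0.43 and 0.30, split at 1802 nt, with 27.3% and 17.8% higher.

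**Figure D1:**
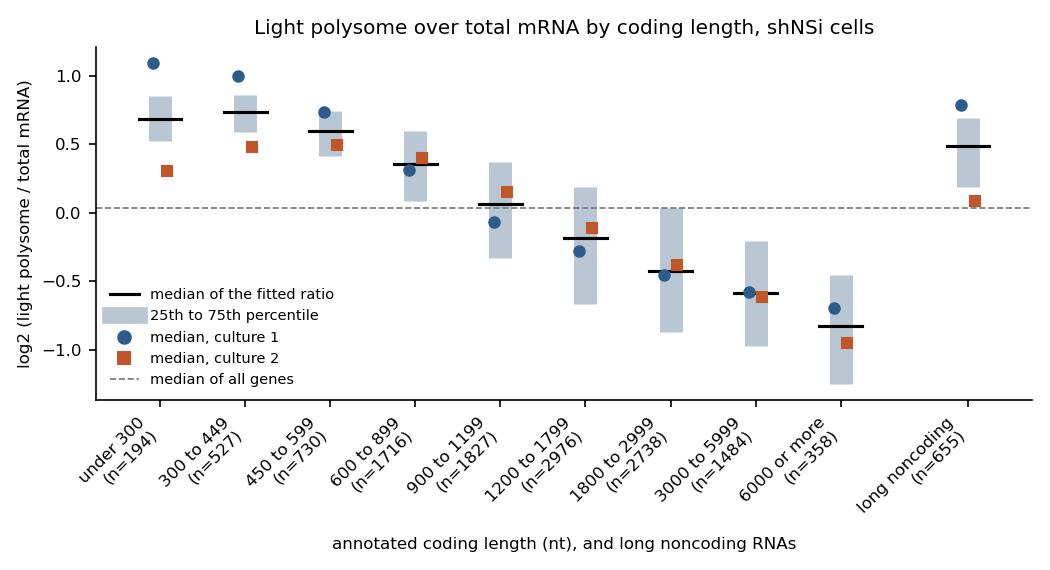
Log2 ratio of light polysome to total mRNA in shNSi cells (y axis) by class of annotated coding length and for long noncoding RNAs (x axis). Black lines are medians of the fitted ratio, bars the 25th to 75th percentile of genes, circles and squares the medians of cultures 1 and 2. The medians fall from 0.74 at 300 to 449 nt to −0.83 at 6000 nt or more, and the cultures lie furthest apart under 300 nt and for long noncoding RNAs.

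Departures from this order were few at both ends, and they were named after their values were seen. Of the 721 genes under 450 nt 386 were higher and 1 was lower. That gene, MTRNR2L12, is a near copy of mitochondrial ribosomal RNA, so its counts are uncertain. Of the 1842 genes of 3000 nt or more 994 were lower and 12 were higher. Among the 12 were PTPRN2, a receptor-type phosphatase of secretory vesicles (coding length 3048 nt, log2 ratio 0.81), the calmodulin-binding transcription activator CAMTA1 (5022 nt, 0.70), EMILIN2, an extracellular matrix glycoprotein (3162 nt, 0.75), and F8, coagulation factor VIII (7056 nt, 0.81).

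At the low end stood the heavy chain of nonmuscle myosin IIA, MYH9, the motor of actomyosin contraction. Its level was 193 and 145 CPM in light polysomes and 1012 and 1090 CPM in total mRNA of cultures 1 and 2, a log2 ratio of −2.65 (standard error 0.36, adjusted p = 1.33e-06, edgeR's quasi-likelihood test). Both light values lay far below both total values. COL4A2 and COL4A1, the type IV collagen chains of basement membranes, followed. COL4A2 had 34.5 and 34.1 CPM in light polysomes and 160 and 231 CPM in total mRNA, a log2 ratio of −2.49, and COL4A1 16.1 and 10.2 against 70.1 and 69.6 CPM, a log2 ratio of −2.44.

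The other 7 of the 10 lowest coding genes with at least 10 CPM encode large structural or scaffold proteins or a large kinase. They were desmoplakin (DSP, −2.40), the intermediate filament protein synemin (SYNM, −2.40), nonmuscle myosin IIB (MYH10, −2.37), fibronectin (FN1, −2.34), the nuclear envelope spectrin-repeat protein nesprin-2 (SYNE2, −2.32), the DNA-dependent protein kinase PRKDC (−2.30) and the dynactin subunit DCTN1 (−2.27). Their coding sequences ran from 3837 nt in DCTN1 to 20724 nt in SYNE2. In each of these 10 genes both light libraries lay below both total libraries.

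The 10 highest coding genes with at least 10 CPM spanned a narrow range, from a log2 ratio of 1.09 in MRPL41 to 1.16 in SELENOM, with coding sequences of 171 to 657 nt. SELENOM, a selenoprotein of the endoplasmic reticulum, had 18.1 and 18.8 CPM in light polysomes and 6.94 and 9.75 CPM in total mRNA (standard error 0.22, adjusted p = 0.000102, edgeR's quasi-likelihood test). UQCR11, whose sequence is printed above, had 177 and 152 CPM in light polysomes against 73.2 and 80.3 CPM in total mRNA. The remaining genes were the small GTPase RHOD (1.14), the chemokine-like factor CKLF (1.12), the membrane protein gene TMEM256 (1.11), MZT2B of the gamma-tubulin complex (1.11), the phosphatase DUSP23 (1.10), the inflammasome adaptor PYCARD (1.10), CCDC85B (1.10) and MRPL41 of the mitochondrial ribosome. In all 10, chosen in the same way, both light libraries lay above both total libraries.

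**Figure D2:**
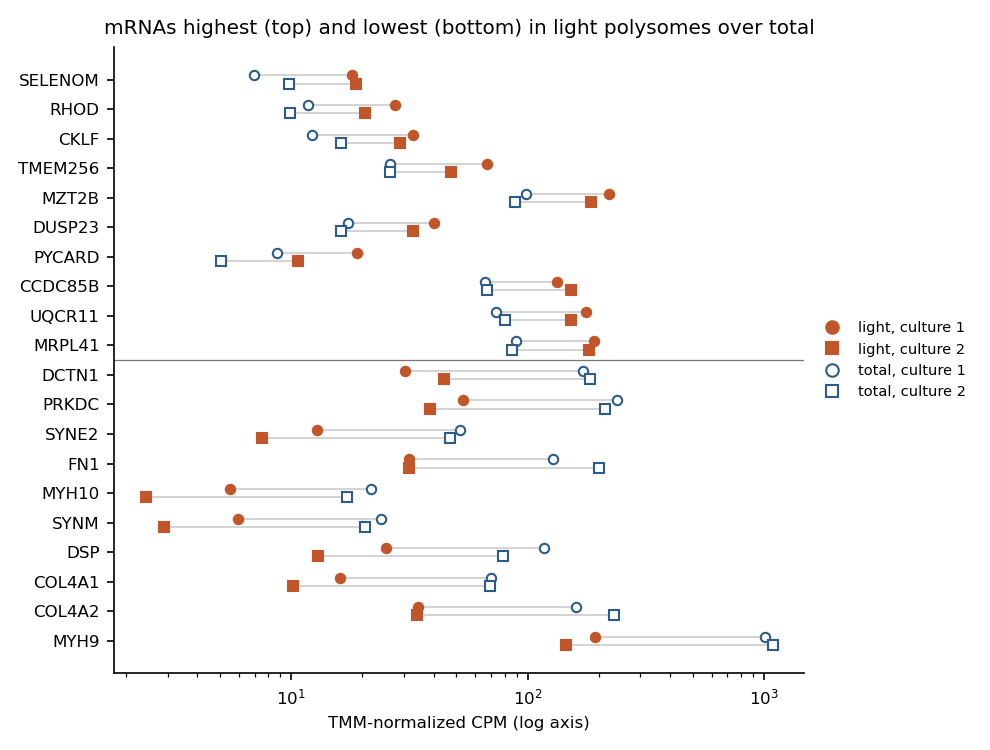
TMM-normalized CPM on a log axis (x) in the light (filled) and total (open) libraries of cultures 1 (circles) and 2 (squares) for the 10 highest and 10 lowest coding genes among those past the threshold with at least 10 CPM (y). Light points lie to the right of total points in each of the upper 10 genes and to the left in each of the lower 10, where the gap is wider, up to 145 against 1090 CPM in MYH9. Genes were chosen for their ratio and 1 direction in both cultures, so within a culture the sides follow from the choice.

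Groups of genes were then read against their coding length, by the difference of each gene from the median of its length class, since the ratio followed length over all coding genes. The count of called members in each list is read against the 10.9% of all genes that were higher and the 21.6% that were lower. Without culture 1, 0 members of any of these lists were called higher. The nuclear-encoded subunits of the respiratory chain and ATP synthase showed both ends within one set of complexes. Of 76 subunits 37 (48.7%) were higher and 10 (13.2%) lower, against 10.9% and 21.6% of all genes, with a median log2 ratio of 0.64 and a median difference from the length class of 0.05. Without culture 1, 0 were higher and 2 lower, and without culture 2, 25 and 10. COX7C had 900 and 629 CPM in light polysomes and 360 and 373 CPM in total mRNA, a log2 ratio of 1.04 (adjusted p = 0.0184, edgeR's quasi-likelihood test). ATP5B, the catalytic beta subunit of ATP synthase with a coding sequence of 1590 nt, had 244 and 518 CPM against 1102 and 1134 CPM, a log2 ratio of −1.65 (adjusted p = 0.000881). The lower subunits also held ATP5A1 (−1.73), NDUFS1 (−1.44) and SDHA (−1.20).

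The proteins of the cytosolic ribosome, whose mRNAs begin with a 5′ terminal oligopyrimidine (TOP) tract that couples them to nutrient signalling, had a median log2 ratio of 0.63. Of 79 measured, 7 (8.86%) were higher, against 10.9% of all genes, and 0 lower, against 21.6%, and the median difference from their length class was −0.0048. The count depended on the tool, with 44 higher and 1 lower by DESeq2 and 17 higher with scaling by library size alone. RPS18 had 4285 and 4275 CPM in light polysomes and 2179 and 2380 CPM in total mRNA, a log2 ratio of 0.91 with a standard error of 0.43 (adjusted p = 0.0991). RPLP0, with a longer coding sequence of 954 nt, had a log2 ratio of 0.12 (adjusted p = 0.848). Length did not order the abundant members, since RPS24 (870 nt) was at 0.84 and RPL8 (774 nt) at 0.003, neither past the threshold. The standard error for RPLP0 was 0.41, near that of RPS18.

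Other TOP mRNAs had lower ratios, and the cultures differed. Of 18 with values, 0 were higher and 5 (27.8%) lower, against 21.6% of all genes, with a median of −0.62. The median was −1.05 in culture 1 and −0.28 in culture 2, and without culture 1 only 1 was lower. The elongation factor EEF1A1 had 2802 and 3562 CPM in light polysomes and 7028 and 6979 CPM in total mRNA, a log2 ratio of −1.15 that missed the threshold (adjusted p = 0.0504, edgeR's quasi-likelihood test). EEF2, which moves the ribosome along the mRNA, passed at −1.80. NPM1, a nucleolar chaperone, had 947 and 2855 CPM in light polysomes against 2078 and 2244 CPM in total mRNA.

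Genes of protein folding and of tRNA charging were the lists furthest under their length. All 20 aminoacyl-tRNA synthetases, which join amino acids to tRNAs, had a ratio below 0 in both cultures, and 18 (90.0%, against 21.6% of all genes) were lower, with a median log2 ratio of −1.27. That is 0.95 under the median of their length classes, and 0 of the 20 lay above it. Without culture 1, 8 were lower, and without culture 2, 17. TARS had 175 and 198 CPM in light polysomes and 519 and 491 CPM in total mRNA (log2 ratio −1.44), and EPRS, the synthetase with the lowest ratio, 52.1 and 58.0 against 188 and 179 CPM (−1.74). KARS, at −0.49, was one of the 2 that did not pass (adjusted p = 0.191).

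Of the 9 cytosolic heat shock proteins 7 (77.8%, against 21.6% of all genes) were lower, with a median of −1.61, or 1.29 under their length classes, and without culture 1 4 were lower. HSP90AA1 had 498 and 1030 CPM in light polysomes and 2865 and 3118 CPM in total mRNA, a log2 ratio of −2.06 (standard error 0.42, adjusted p = 0.000311, edgeR's quasi-likelihood test). HSP90AB1 was alike at −2.07 and HSPA8, the constitutive Hsp70, at −1.61. Of the 13 chaperones and stress genes of the endoplasmic reticulum 9 (69.2%) were lower and 1 higher, with a median of −1.35. Calreticulin (CALR) had 143 and 328 CPM against 549 and 912 CPM, a log2 ratio of −1.71, and its membrane-bound relative calnexin (CANX) a log2 ratio of −1.62. SDF2L1, a short member of the list, was the gene that was higher, at 0.71.

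The proteasome, the protease of ubiquitin-tagged proteins, had 13 of 31 subunits (41.9%, against 21.6% of all genes) lower and 0 higher, with a median of −0.41. One subunit lay above the median of its length class. PSMD2 of the regulatory particle had 209 and 381 CPM in light polysomes and 927 and 929 CPM in total mRNA, a log2 ratio of −1.72. The cultures stood apart, with a list median of −0.85 in culture 1 and 0.01 in culture 2, and without culture 1 only 1 subunit was called. Abundant mRNAs often used as references also lay low or spread widely. GAPDH had 1866 and 4319 CPM against 6987 and 7682 CPM (log2 ratio −1.37, adjusted p = 0.0254), LMNA of the nuclear lamina a log2 ratio of −1.73 (adjusted p = 0.000278), and ACTB 2095 and 5606 CPM against 6185 and 6854 CPM (−0.93, adjusted p = 0.132).

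Long secreted proteins and motors had more lower members than the 21.6% of all genes. Of 23 collagen chains 15 (65.2%) were lower and 0 higher (median −1.31, or 0.65 under their length classes). Of 10 laminin chains 8 (80.0%) were lower and 0 higher (median −0.93, or 0.35 under). Of 48 kinesins, myosins and dynein heavy chains 32 (66.7%) were lower and 1 higher (median −0.90, or 0.35 under), and 16 of the 48 lay above the median of their length class. Without culture 1, 12 collagen chains, 5 laminin chains and 12 motors were lower, and without culture 2, 12, 5 and 18. COL6A1, of the microfibril-forming type VI collagen, had 21.3 and 61.9 CPM in light polysomes and 99.1 and 305 CPM in total mRNA, so that the cultures differed in level while their log2 ratios were −2.21 and −2.30. LAMB3, a chain of laminin-332 in epithelial basement membrane, had 80.6 and 188 CPM against 204 and 452 CPM (log2 ratio −1.30). LAMA5 (−0.32, adjusted p = 0.246) and the kinesin KIF1C (−0.19, adjusted p = 0.651) did not pass in spite of coding sequences of 11088 and 3312 nt.

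Initiation factors spread over the range by subunit. Of 32 measured, 13 (40.6%) were lower, against 21.6% of all genes, and 3 (9.38%) higher, near the 10.9% of all genes. Without culture 1, 4 were lower. EIF3A, EIF3B and EIF3D, subunits of the eIF3 complex that bridges mRNA and the small ribosomal subunit, had log2 ratios of −2.23, −1.57 and −1.65. The scaffold EIF4G1 had 280 and 341 CPM in light polysomes and 808 and 989 CPM in total mRNA (−1.53, adjusted p = 0.000791, edgeR's quasi-likelihood test). Its relative EIF4G2, which encodes DAP5 and starts at a GUG codon, had 1654 and 1633 CPM against 1508 and 1455 CPM, a log2 ratio of 0.15 (standard error 0.39, adjusted p = 0.792), 0.57 above the median of its length class. The cap-binding protein EIF4E (0.62), its relative EIF4E2 (0.74) and its inhibitor EIF4EBP1 (0.93) were the 3 that were higher.

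**Figure D3:**
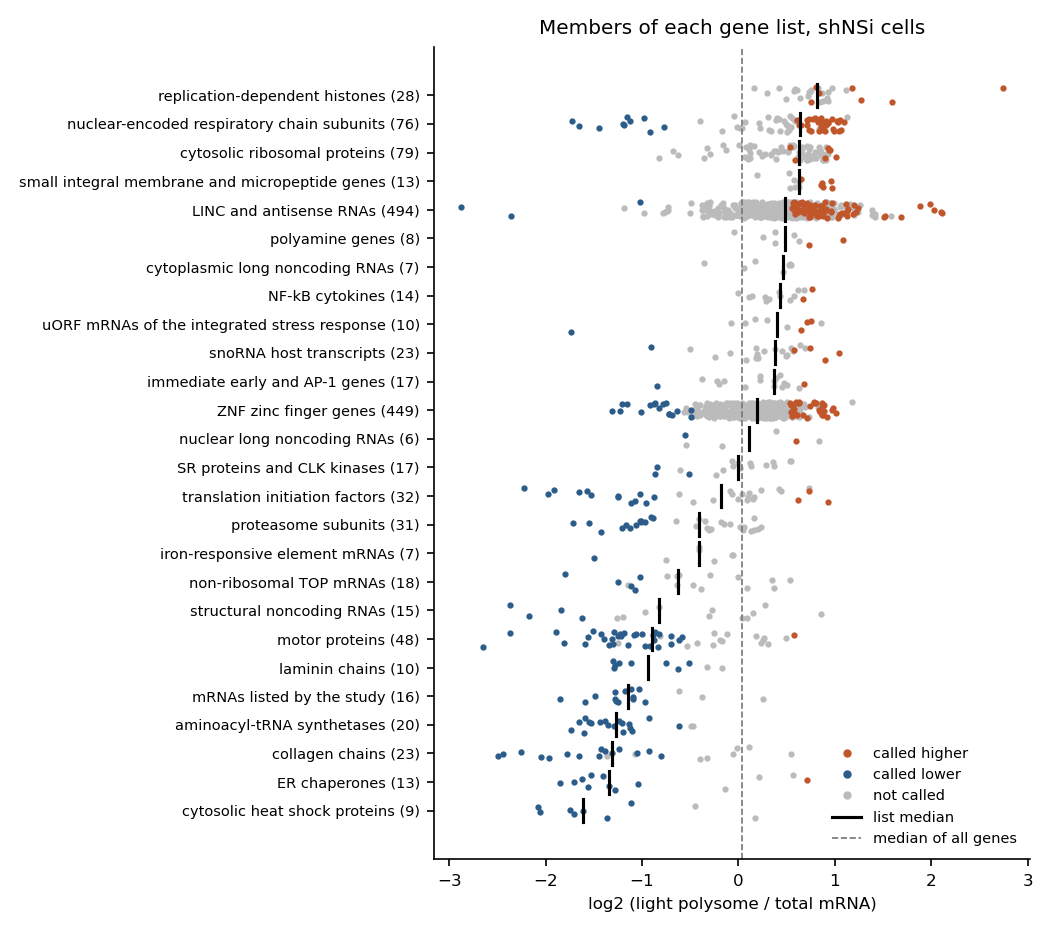
Log2 ratio of light polysome to total mRNA in shNSi cells (x) for each measured member of the gene lists (y, number of members in brackets). Points are genes, coloured by call, black bars list medians and the dashed line the median of all genes. Heat shock proteins, chaperones and collagen chains lie lowest, with medians of −1.61, −1.35 and −1.31, and replication-dependent histones highest at 0.82.

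Upstream open reading frames divert initiating ribosomes from the main start, and the mRNAs of the integrated stress response that carry them are poorly translated in unstressed cells. Of 10 such mRNAs 3 (30.0%, against 10.9% of all genes) were higher and 1 lower, with a median of 0.40, and 9 of 10 lay above the median of their length class, by a median of 0.49. ATF4, the transcription factor of the response, had 1493 and 969 CPM in light polysomes and 736 and 601 CPM in total mRNA, a log2 ratio of 0.86 that did not pass (standard error 0.36, adjusted p = 0.0667, edgeR's quasi-likelihood test), although both light values lay above both total values. PPP1R15A, the phosphatase subunit that ends the response, had 1007 and 857 CPM against 619 and 691 CPM (0.51, adjusted p = 0.272). ATF5 (0.71), DDIT3 (0.65) and SLC35A4 (0.76) were higher, with adjusted p-values of 0.0198, 0.0416 and 0.049. EPRS, counted above with the synthetases, was the one that was lower.

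AUG triplets between the transcript's 5′ end and its start codon were then counted over all coding genes, and the ratio was read by class of coding length. Among coding sequences of 1200 to 1799 nt the median log2 ratio was −0.33 for the 1487 genes without such an AUG, −0.11 for the 980 with 1 to 2 and 0.05 for the 509 with 3 or more. The share of lower calls was 36.0%, 23.2% and 14.7% in that order. In both cultures the order of the medians was the same in this class, from −0.46 to 0.02 in culture 1 and from −0.24 to 0.04 in culture 2. At 600 to 899 nt culture 2 did not show the order (0.40, 0.41 and 0.39), and at 6000 nt or more culture 1 did not (−0.72, −0.78 and −0.48). In the classes under 600 nt the fitted medians did not rise with the number of AUGs, and the cultures did not share an order. With 0, 1 to 2 and 3 or more AUGs it was 0.73, 0.63 and 0.64 under 300 nt, 0.75, 0.73 and 0.66 at 300 to 449 nt, and 0.61, 0.60 and 0.56 at 450 to 599 nt. At 300 to 449 nt they were 0.97, 1.03 and 1.01 in culture 1 and 0.54, 0.41 and 0.34 in culture 2. An AUG in the annotated leader is a description of the transcript chosen, not a sign that it is used.

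**Figure D4:**
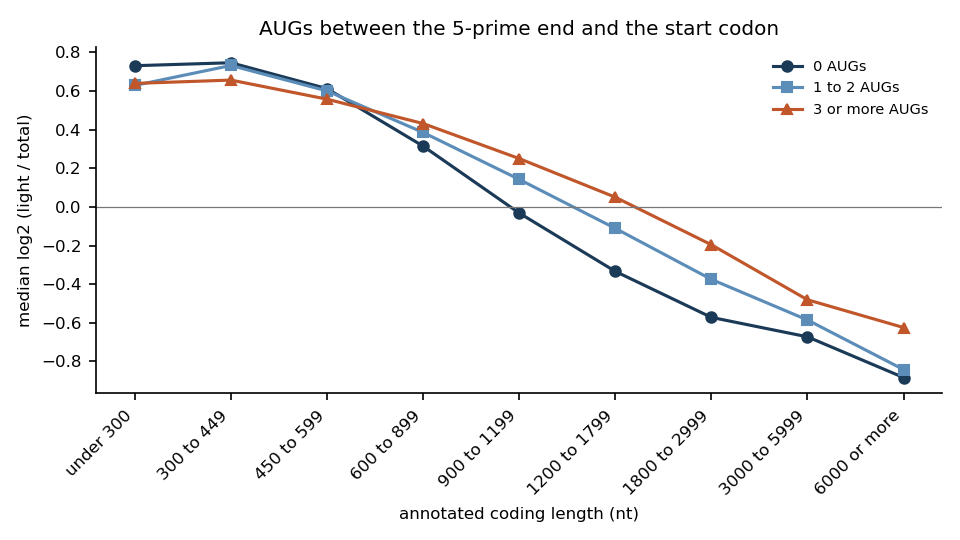
Median log2 ratio of light polysome to total mRNA in shNSi cells (y) by class of coding length (x) for genes with 0, 1 to 2 and 3 or more AUGs before the annotated start codon. Up to 599 nt the lines lie close together, in an order that the cultures did not share at 300 to 449 nt, and above it the fitted median of genes without an AUG is the lowest of each class, with medians of −0.33, −0.11 and 0.05 at 1200 to 1799 nt.

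Zinc finger genes of the ZNF series, which encode DNA-binding proteins with tandem finger repeats, lay above their length. Of 449 measured, 31 (6.90%) were higher and 17 (3.79%) lower, against 10.9% and 21.6% of all genes, and DESeq2 called 13 higher and 12 lower. The fit of all 8 shNSi libraries gave 8 and 8, and scaling by library size alone 45 and 13. The list median was 0.27 in culture 1 and 0.10 in culture 2. Their median log2 ratio was 0.20 and their median difference from the length class 0.48, with 383 of 438 above the class median. The abundant member ZNF664 had 171 and 112 CPM in light polysomes and 116 and 101 CPM in total mRNA (0.35, adjusted p = 0.278, edgeR's quasi-likelihood test). Genes of inflammatory cytokines gave 2 of 14 (14.3%) higher (IL11 at 0.76 and CXCL1 at 0.67), near the 10.9% of all genes, and 0 lower, and lay near their length classes (−0.07). Polyamine genes gave 2 of 8 higher. One of them, OAZ1, the ornithine decarboxylase antizyme read through a frameshift, had 1486 and 1235 CPM in light polysomes and 636 and 641 CPM in total mRNA (1.09, adjusted p = 0.0217).

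Of 17 immediate early and AP-1 genes 1 (5.88%) was higher and 1 lower, under the shares of all genes, with a median of 0.37. Of 17 SR proteins and CLK kinases of splicing 0 were higher and 3 (17.6%) lower, near the 21.6% of all genes, with a median of −0.01. Among 7 mRNAs with iron-responsive elements only TFRC, the transferrin receptor, was called, at −1.50. FTL, the ferritin light chain, had 3464 and 8525 CPM in light polysomes and 8452 and 9879 CPM in total mRNA (−0.75, adjusted p = 0.242). The 16 mRNAs that the study names as dependent on DAP5 had 13 lower (81.2%, against 21.6% of all genes) and 0 higher members in these control cells, with a median of −1.14, or 0.69 under their length classes. Without culture 1, 4 were lower. The study chose this list on libraries that include these, so it is not independent evidence. ITGAV of the vitronectin receptor had 8.41 and 11.5 CPM against 37.2 and 34.0 CPM, a log2 ratio of −1.85.

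Long noncoding RNAs were enriched in light polysomes in one control culture and hardly in the other. Of 655 with values, 87 (13.3%) were higher and 10 (1.53%) lower, against 10.9% and 21.6% of all genes, with a median log2 ratio of 0.48, but that median was 0.79 in culture 1 and 0.08 in culture 2. DESeq2 called 25 of them higher, the fit of all 8 shNSi libraries 13 and scaling by library size alone 133. Of the 655 RNAs 347 were above 0 in both cultures and 52 below 0 in both. Without culture 2, 101 were higher, and without culture 1 only 1. The list of genes named as LINC or antisense RNAs overlaps the 655 but is not a subset, since 10 of its members have an annotated coding sequence. It had 72 of 494 higher and 3 lower (median 0.49), and by DESeq2 21 higher. Processed pseudogenes, whose reads can be split with their parent genes, had 43 of 383 higher and 35 lower. DESeq2 called 13 of them higher and 10 lower, and the fit of all 8 shNSi libraries 10 and 19, so the balance depended on the setting. The ratio of long noncoding RNAs did not follow transcript length (Spearman's rho −0.03 across 655 genes). The light library of culture 1 had reads for 22683 symbols and that of culture 2 for 21638, and whether this bears on the difference was not tested.

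The highest noncoding RNAs with at least 10 CPM were PITPNA-AS1 (0.96), the snoRNA host SNHG7 (0.90), the DNA repair RNA LINP1 (0.87) and AGAP2-AS1 (0.84). SNHG7 had 157 and 137 CPM in light polysomes and 72.8 and 85.1 CPM in total mRNA, higher in both cultures (adjusted p = 0.00454, edgeR's quasi-likelihood test). LINP1 had 97.1 and 34.7 CPM against 39.5 and 25.9 CPM. The deposited table carries a tag in its name that may mark reverse-strand counting, but no source used here explains it, so antisense RNAs are uncertain where they overlap a gene on the other strand.

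Host transcripts of snoRNAs, spliced RNAs whose introns release small nucleolar RNAs, showed the same split between cultures. Of 23 measured, 4 (17.4%) were higher and 1 (4.35%) lower, against 10.9% and 21.6% of all genes, and the median was 0.88 in culture 1 and −0.10 in culture 2. ZFAS1 had 408 CPM in light polysomes and 190 CPM in total mRNA of culture 1, and 216 against 232 CPM in culture 2. GAS5 had 633 against 342 CPM and 406 against 353 CPM. Among cytoplasmic long noncoding RNAs, CYTOR had 544 against 211 CPM in culture 1 and 148 against 179 CPM in culture 2, and 0 of 7 passed, with medians of 0.75 and −0.19.

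RNAs known to stay in the nucleus had reads in all 4 libraries. NEAT1, the scaffold of paraspeckles, had 36.6 and 50.0 CPM in light polysomes and 69.2 and 57.1 CPM in total mRNA, a log2 ratio of −0.55 (adjusted p = 0.0401, edgeR's quasi-likelihood test), the one noncoding RNA of at least 10 CPM past the threshold on the low side with both cultures below 0. Of 6 such RNAs 1 was higher (PVT1 at 0.60) and 1 lower, and by DESeq2 neither passed. MALAT1 had 13.5 and 11.2 against 15.8 and 12.1 CPM (−0.17, adjusted p = 0.563). Of 15 RNA components of ribonucleoproteins 4 (26.7%) were lower, near the 21.6% of all genes, and 0 higher, and without culture 1 none passed (0 of 15). RN7SL1 of the signal recognition particle had 0.826 and 1.44 CPM in light polysomes and 5.11 and 4.99 CPM in total mRNA (−2.17), and reads can be split between it and its near-identical copies. RMRP (−2.36), RN7SK (−1.84) and RN7SL2 (−1.63) were the others.

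Replication-dependent histones, whose short mRNAs end in a stem-loop, had 28 of 74 symbols with enough counts. Of these 28, 7 were higher (against 10.9% of all genes) and 0 lower, with a median of 0.82, and DESeq2 called 3 higher. HIST1H2AC had 25.5 and 9.46 CPM in light polysomes and 12.7 and 6.29 CPM in total mRNA (0.81, adjusted p = 0.00445, edgeR's quasi-likelihood test). The more abundant HIST1H2BK, with 89.9 against 44.3 CPM in culture 1 and 30.3 against 31.2 CPM in culture 2, did not pass. Reads of histone genes with near-identical copies are uncertain. Of 13 genes for small membrane proteins and micropeptides 6 (46.2%, against 10.9% of all genes) were higher and 0 lower, with medians of 1.01 and 0.28 in the cultures. They lay near their length classes (−0.06, with 5 of 12 above), and 45.9% of all genes under 300 nt were higher.

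The same ratio was taken in the shDAP5 cultures, whose libraries entered the comparison above only through the spread used in the fits that left out a culture. Their light libraries are titled light but their columns carry the code that the control cultures use for a moderate polysome pool, and they were taken by title. There 4314 genes (28.4%) were higher and 4811 (31.6%) lower with the culture block, against 2460 and 3391 without it (replicate block left out). With scaling by library size alone lower genes were 45.2% of the calls in place of 52.7%. Of the 1665 genes higher in shNSi cells 1588 (95.4%) were above 0 in both shDAP5 cultures, against 43.4% of all genes, and 1457 were called higher. Of the 3280 lower genes 3176 (96.8%) were below 0 in both, against 41.8% of all genes, and 3044 were called lower. In the opposite direction 1 gene was called. MYH9 had a log2 ratio of −2.40 and UQCR11 of 1.08 in shDAP5 cells.

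The difference between both lines in the light over total ratio was tested as the interaction of fraction and shRNA in the 8 libraries. It passed for 0 genes (0.0%) by edgeR's quasi-likelihood test, with 817 genes at an unadjusted p under 0.05 (5.37%), and for 0 genes by DESeq2, with 447 unadjusted. In some groups on which the control cultures disagreed the shDAP5 values were close to culture 1. Long noncoding RNAs had medians of 0.65 and 0.82 in the shDAP5 cultures, snoRNA hosts of 0.69 and 0.91, and proteasome subunits of −0.92 and −0.85. In these groups control culture 2, at 0.08, −0.10 and 0.01, stood apart from the other 3 cultures. This was not so in every list. For the non-ribosomal TOP mRNAs the shDAP5 values (−0.59 and −0.74) lay between the control cultures (−1.05 and −0.28), and for the respiratory chain subunits they (0.47 and 0.43) lay below both (0.87 and 0.57).

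**Figure D5:**
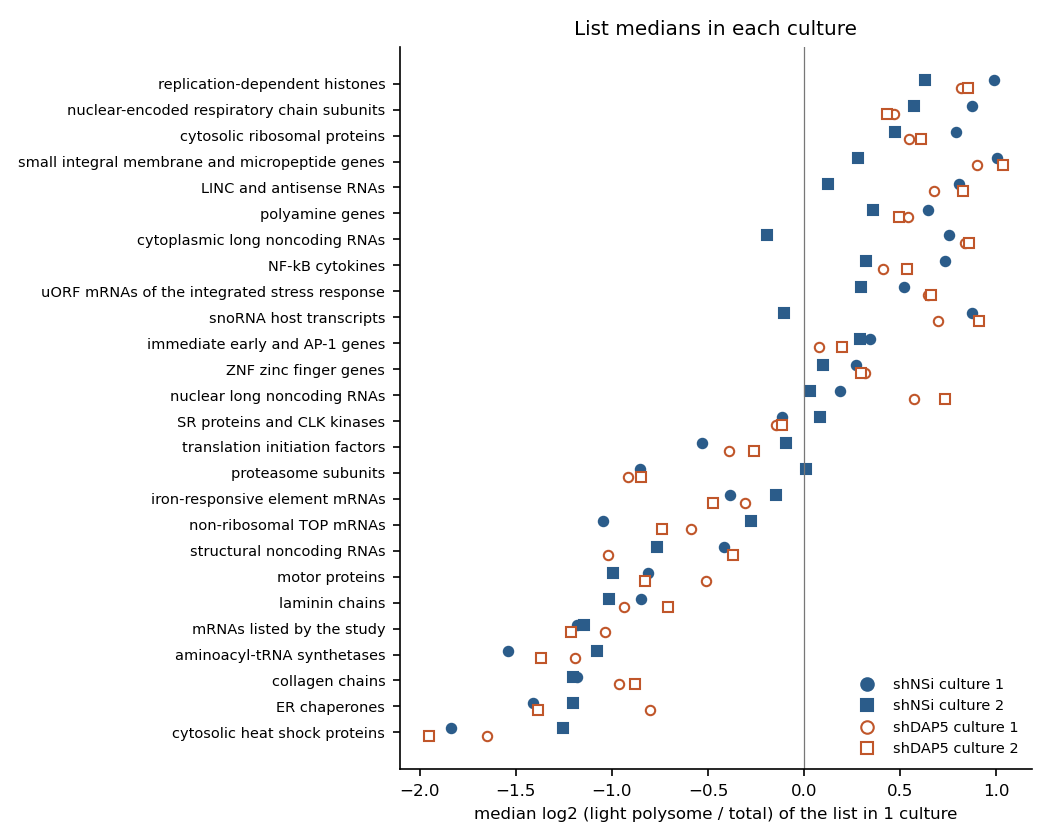
Median log2 ratio of light polysome to total mRNA of each gene list (y) in 1 culture (x), with filled blue marks for shNSi and open orange marks for shDAP5, circles for culture 1 and squares for culture 2. The shNSi culture 2 square stands apart for snoRNA hosts (−0.10), cytoplasmic long noncoding RNAs (−0.19) and proteasome subunits (0.01), while all 4 cultures lie below −1 for aminoacyl-tRNA synthetases and heat shock proteins.

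Set against heavy polysomes of the same control cultures, the light pool differed for more genes, with 4614 (30.3%) higher and 4407 (29.0%) lower in light. Both comparisons use the same light libraries, so their values are given side by side. MYH9 was at −3.10 over heavy and −2.65 over total, whereas UQCR11 was at 2.77 over heavy and 1.09 over total. The aminoacyl-tRNA synthetases had 20 of 20 lower over heavy (median −2.30), the ribosomal proteins 63 of 79 higher (median 2.03) and the long noncoding RNAs 463 of 655 higher (median 1.70). RN7SL1, low over total, was at 0.65 over heavy (adjusted p = 0.30, edgeR's quasi-likelihood test). The median of all genes over heavy was 0.16 with TMM and 0.55 when scaled by library size alone, and lower genes were 48.9% and 34.9% of the calls, so levels over heavy are relative to this shift.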

How the data were processed

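Light polysome mRNA and total mRNA of 2 MB-231-shNSi cultures was sequenced, with the heavy fraction and MB-231-shDAP5 libraries used for comparison. The authors deposited raw read counts per gene symbol, aligned with STAR 2.6.0a to hg19 according to the submitters' processing notes, which also name limma. The name of the deposited table names featureCounts and carries a tag that may mark reverse-strand counting. The annotation is not given in the sources used here, nor is the strand setting stated in them. Library totals were 25899838 to 30795910 counts over all 14 libraries, which sets the precision of low genes.

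Genes with at least 10 counts in 2 or more of the 4 libraries were fitted with edgeR 4.0.16 (R 4.3.3), using TMM scaling, the robust quasi-likelihood test, culture as a block and Benjamini-Hochberg adjustment at 0.05 over all 15209 genes. The pairing comes from light and total mRNA taken from the same culture, and their deviations correlated at 0.586 across genes. The labels describe 2 samples per group. With culture as a block, p-values rest on how the light over total ratio varied between these 2 cultures. That spread was largely shared across genes (35.4 prior degrees of freedom), so they do not measure each gene's own spread alone. The tested alternatives were DESeq2 1.42.0, limma 3.58.1 on quantile-normalized log2(CPM + 1), library size scaling, other count filters, all 8 shNSi libraries in 1 fit, no replicate block and each culture left out. CPM in the text is TMM-scaled, and log2 ratios are relative to library composition, since RNA amounts were not measured.

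Gene types, lengths and sequences came from GENCODE v29 (GRCh38), matched by symbol for 38119 of 58434 symbols, 498 of them through a RefSeq synonym. A further 27 symbols had been turned into dates. The genome build of the counts differs, so no coordinates are given. Mitochondrially encoded genes were not analysed here. Members and gene lists were chosen with earlier results of these data known. Named genes were the 10 highest and 10 lowest coding and up to 8 highest and 8 lowest noncoding genes past the threshold with at least 10 CPM and 1 direction in both cultures, the most abundant members of each list, EIF4G2, ACTB, GAPDH, LMNA, HNRNPD and the mRNAs named by the study. Other names in the text, such as further list members past the threshold, UBE2SP1, LAMA5, KIF1C and KARS, were chosen after their values were seen where this rule does not cover them. On simulated counts for 14981 genes the test recovered 47 of 100 genes changed by a log2 ratio of 1 and 1 of 99 changed by 0.5, with 7.69% of calls false.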

Additional observations from a re-analysis of the deposited data

How the results depend on the processing

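The counts of called genes depended on the culture more than on the tool. With all 8 shNSi libraries in 1 fit 2288 genes passed (444 higher, 1844 lower, 80.6% of them lower), of which 2287 were among the 4945 called with the 4 libraries, and DESeq2 called 3646, of which 3413 were among them. Without the replicate block 0 genes passed in shNSi cells by edgeR's quasi-likelihood test, with 1055 higher and 2366 lower at an unadjusted p under 0.05, and 5851 passed in shDAP5 cells. The block comes from the pairing of fractions within a culture. Leaving out 1 culture gave 510 calls (without culture 1) to 2841 calls (without culture 2), in fits where the spread came from the remaining libraries of both lines and the lone culture was assumed to vary like them. Spearman's rho between the log2 ratio and coding length ran from −0.6374 to −0.5281 when 1 culture was left out. Among the genes whose values the report prints, the cell line markers aside, the direction changed for CYTOR (−0.28 to 1.41 over the cultures left out), HIST1H2BK (−0.045 to 1.06), NPM1 (−1.09 to 0.34) and ZFAS1 (−0.11 to 1.14), each without culture 1, and the cause was not tested. Over these genes and all alternatives 713 values kept direction and side of the threshold, 156 kept direction and lost the threshold, 14 gained it and 4 changed direction. List medians moved by less than 1 SD between cultures in 230 values and by more in 30. That SD comes from the same 2 cultures, and leaving 1 of them out tends to move a median by less than it. These counts are therefore no test of stability. The snoRNA host median went from 0.38 to −0.11 without culture 1 and still counted as less than 1 SD. Depth limits genes near 10 counts.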
